A study of Mus musculus with 4 samples.

Results

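Heat shock chaperones were examined in lung RNA of mice lacking Rab44 (Rab44-KO) and of their wild-type (WT) littermates. The 10 members were taken by gene symbol from the 41079 genes of the deposited count table. Of these, 7 are stress-inducible (Hspa1a, Hspa1b, Hsph1, Dnajb1, Hspb1, Hsp90aa1 and Bag3) and 3 are constitutively expressed (Hspa8, Hspd1 and Hspe1) by textbook class. Both genotypes were taken as normal mice and as OVA-induced mice, with 1 library for each of these 4 conditions, and the number of mice behind each library was not named. The mice were females aged 8 to 14 weeks, and the KO mice carried a Rab44 gene edited by CRISPR/Cas9 on a C57BL/6 background. OVA-induced mice were sensitized intraperitoneally with 100 μg ovalbumin (OVA) in alum on days 0, 7 and 14, were challenged intranasally with 100 μg OVA in 50 μL from day 17 to day 20, and their lungs were taken on day 21. The normal mice are labelled as having had no treatment, although the protocol attached to them also names a phosphate-buffered saline challenge.

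Molecular chaperones bind unfolded proteins and help them to fold, refold or be degraded. HSP70 proteins work in cycles of ATP hydrolysis that J-domain proteins start and nucleotide exchange factors reset, HSP90 acts later on signalling proteins, small heat shock proteins hold unfolded clients, and the HSP60 and HSP10 chaperonin folds proteins inside mitochondria. Heat and oxidative damage are known to raise the inducible members through heat shock factor 1, which binds inverted repeats of the unit GAA near their start sites.

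The sequences around the start sites of 5 members are shown first, because such repeats can be seen in them. RefSeq promoter windows of GRCm38.p6, each running from 250 bases before to 50 bases after an annotated start, were found for 8 of the 10 members and not for Hspa8 and Hsp90aa1. The windows were searched for a pair of facing units (GAANNTTC or TTCNNGAA, which read the same on both strands) and for 3 alternating units (GAANNTTCNNGAA or TTCNNGAANNTTC, each of which contains both pairs). A match is a run of letters and was not tested as a binding site. Capitals mark the matches, and the sequences run 5′ to 3′ on the strand of the gene. The windows lie at chr17:34972107-34972406 on the minus strand for Hspa1a, chr17:34959189-34959488 on the minus strand for Hspa1b, chr5:149636287-149636586 on the minus strand for Hsph1, chr5:135887669-135887968 on the plus strand for Hspb1 and chr1:55087898-55088197 on the plus strand for Hspe1.
Hspa1a: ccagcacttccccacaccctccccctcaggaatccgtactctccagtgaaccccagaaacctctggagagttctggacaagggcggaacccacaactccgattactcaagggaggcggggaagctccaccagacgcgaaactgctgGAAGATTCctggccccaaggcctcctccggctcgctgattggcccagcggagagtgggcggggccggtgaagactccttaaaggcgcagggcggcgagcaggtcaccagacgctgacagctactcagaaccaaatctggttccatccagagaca
Hspa1b: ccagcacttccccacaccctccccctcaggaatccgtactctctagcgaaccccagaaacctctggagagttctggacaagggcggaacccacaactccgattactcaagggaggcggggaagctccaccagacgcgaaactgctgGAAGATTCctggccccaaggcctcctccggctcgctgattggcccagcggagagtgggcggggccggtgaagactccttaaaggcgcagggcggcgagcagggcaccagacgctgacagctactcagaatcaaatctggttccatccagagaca
Hsph1: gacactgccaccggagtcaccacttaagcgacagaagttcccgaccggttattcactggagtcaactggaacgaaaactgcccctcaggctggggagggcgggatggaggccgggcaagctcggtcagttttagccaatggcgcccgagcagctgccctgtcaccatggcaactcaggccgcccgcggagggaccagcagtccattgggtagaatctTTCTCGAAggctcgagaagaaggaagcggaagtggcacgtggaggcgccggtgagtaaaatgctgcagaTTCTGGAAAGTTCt
Hspb1: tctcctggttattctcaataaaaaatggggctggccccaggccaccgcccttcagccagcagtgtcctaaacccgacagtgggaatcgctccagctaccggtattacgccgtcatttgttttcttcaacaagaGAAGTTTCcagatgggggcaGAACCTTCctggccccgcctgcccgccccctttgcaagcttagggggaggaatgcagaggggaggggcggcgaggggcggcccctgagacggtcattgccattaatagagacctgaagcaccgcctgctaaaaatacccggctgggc
Hspe1: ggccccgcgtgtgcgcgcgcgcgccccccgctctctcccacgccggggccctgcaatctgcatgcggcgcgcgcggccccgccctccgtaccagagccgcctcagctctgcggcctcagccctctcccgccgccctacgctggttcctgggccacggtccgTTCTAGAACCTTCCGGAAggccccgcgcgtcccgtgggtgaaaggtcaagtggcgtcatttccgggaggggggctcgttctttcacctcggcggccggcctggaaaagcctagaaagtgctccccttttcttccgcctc

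The Hspa1a and Hspa1b windows were identical at 296 of 300 bases (98.67%), and each held 1 pair starting 104 bases before the start. Hspb1 held 2 pairs, which began 117 and 97 bases before the start. Hsph1 held a pair 33 bases before the start and a run of 3 units beginning 36 bases after it. Counted from its other annotated start, these began 54 bases before and 15 bases after. In Hspe1, 3 overlapping pairs beginning 89, 84 and 79 bases before the start formed 2 overlapping runs of 3 units. Hspd1 and Hspe1 lie head to head, and 285 bases of the window at the other annotated start of Hspd1 were the same genomic bases as the Hspe1 window, so this match belongs to both genes. Bag3 held 1 pair, 42 bases after its start, and neither window of Dnajb1 held a match. Counted by gene, over any of its windows, 7 of 8 members had a pair and 3 of 8 had 3 units, with Hspd1 and Hspe1 counted for the same site. The matches did not follow the textbook classes, since Hspd1 and Hspe1, classed as constitutive, had 3 units and Dnajb1, classed as inducible, had no match. Of 27025 genes, 17% had a pair and 0.662% had 3 units in any window, and by window these shares were 15.1% and 0.603% of 32851.

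The libraries held 18112901 to 19910236 counts. The targeted gene Rab44 had 251 counts in normal WT and 1 in normal Rab44-KO, a log2 fold change (log2FC) of -7.73 with an interval of -13.2 to -5.41. After OVA it had 810 counts in WT and 0 in Rab44-KO, which at a floor of 3 counts is at least 272-fold lower. Sftpc, the surfactant protein of alveolar type 2 cells, stood at 9290 to 18690 CPM (counts scaled to library size) in the 4 libraries, so this marker of the labelled tissue was present. CPM were scaled by edgeR's TMM method, a log2FC is the log2 ratio of CPM, and over 2-fold means a log2FC beyond 1 or -1. With 1 library per condition no test was run, since none of these comparisons has residual degrees of freedom, and each is between libraries, not conditions. Ranges in parentheses cover counting error only, and are 95% intervals by the exact Clopper-Pearson method for count ratios and by the exact Poisson method for CPM. Where 4 values of a gene follow each other, WT comes before Rab44-KO and the normal pair before the OVA-induced pair. The 4 comparisons share libraries and are not independent of each other. In whole lung, fewer cells of a type and less RNA per cell cannot be told apart.

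Compared per unit of transcript length, in TPM (transcripts scaled to gene length and library size), the constitutive cytosolic HSP70 Hspa8 was the most abundant member, at 752 to 1166 TPM over the 4 libraries, and its range did not meet that of the next member. Hsp90aa1, the inducible HSP90, followed at 264 to 565 TPM, the small heat shock protein Hspb1 at 153 to 319 TPM, and the mitochondrial pair Hspe1 and Hspd1 at 119.9 to 163.5 and 106 to 133 TPM. These 4 members overlapped with their neighbours in this order. Bag3 lay apart at 50.9 to 59.6 TPM. Dnajb1 at 28.0 to 32.5 TPM lay within the range of Hsph1, which spanned 15.2 to 47.7 TPM and also met those of the last members, and the inducible HSP70 genes Hspa1a and Hspa1b were lowest, at 8.58 to 26.9 and 7.27 to 25.9 TPM. By TPM rank among all genes, Hspa8 lay between 64 and 141 and Hspa1b between 5732 and 11152.

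**Figure D1:**
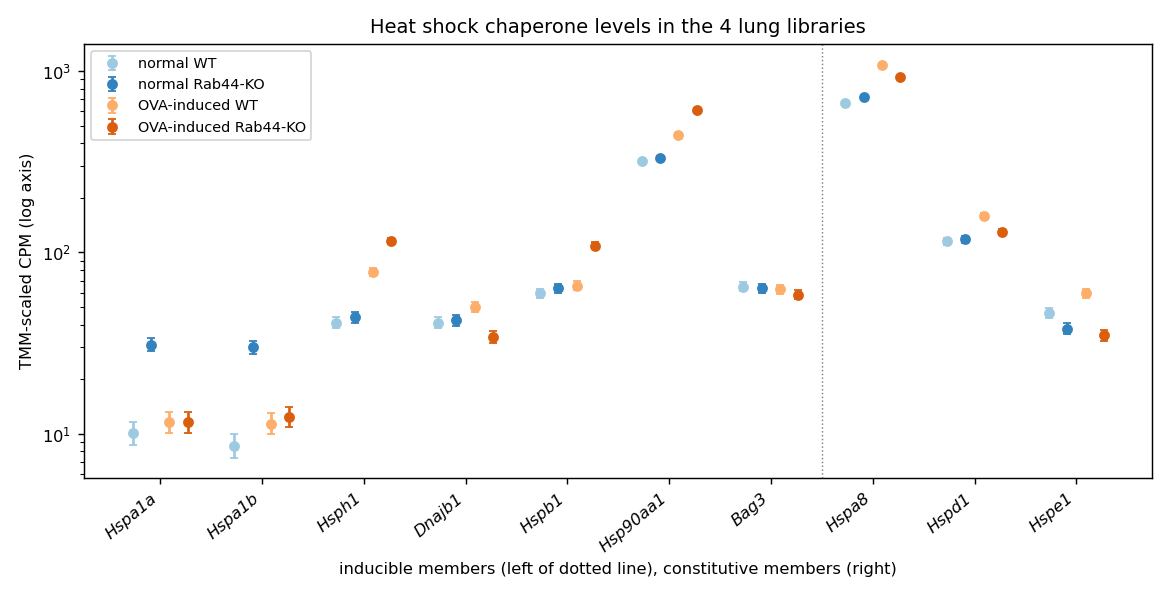
TMM-scaled CPM of each member (log axis) in the 4 libraries, 1 point per library, with exact 95% Poisson intervals that cover counting error only. Hspa1a and Hspa1b stood near 30 CPM in the normal Rab44-KO library and between 8.59 and 12.4 CPM in the other 3 libraries, while Hsph1, Hspb1 and Hsp90aa1 were highest in the OVA-induced Rab44-KO library.

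The comparison of Rab44-KO with WT under normal conditions asks what loss of Rab44 is accompanied by without allergen. Here the inducible HSP70 genes stood apart from every other member. Hspa1a (chromosome 17 of GRCm38, 34969190 to 34972156, a single-exon gene) had 10.1 CPM in WT and 31.1 in Rab44-KO under normal conditions, and 11.6 CPM in both genotypes after OVA. Its neighbour Hspa1b (34956436 to 34959238) had 8.59, 30.0, 11.4 and 12.4 CPM in the same order. The normal Rab44-KO library was thus high for both genes, and the other 3 libraries lay close together. The log2FC of normal Rab44-KO over WT was 1.62 (1.38 to 1.86) for Hspa1a, a 3.07-fold difference, and 1.80 (1.55 to 2.06) for Hspa1b, a 3.49-fold difference. Hspa1a and Hspa1b encode nearly the same protein, and 38.11% of the 150-base windows of the Hspa1a transcript also occur in Hspa1b. The split of reads between them is therefore uncertain, and the ratio of Hspa1a to Hspa1b counts was 1.18, 1.03, 1.02 and 0.942 in the 4 libraries. Their sum, which does not depend on the split, was 18.7, 61.1, 23.0 and 24.0 CPM.

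When the 13166 genes that reached 100 counts in either library were ranked, Hspa1b was 7th and Hspa1a 12th from the top of this comparison, where 0.334% of genes were over 2-fold higher. At the count minimum of 10, which all 10 members passed in each comparison, 2 of 10 members were over 2-fold higher, against 2.77% of 18718 genes, and 0 of 10 were over 2-fold lower, against 2%. At 1.5-fold the same 2 members were higher, against 6.83% of genes, and 0 were lower, against 4.61%. The median log2FC of the members was 0.074, and that of all genes was 0.0043.

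The other 5 inducible members differed little between the normal libraries. Hsph1, the HSP110 exchange factor of HSP70, had a log2FC of 0.10 (-0.05 to 0.24), Dnajb1, the J-domain partner of inducible HSP70, 0.04 (-0.11 to 0.18), Hspb1 0.09 (-0.03 to 0.21) and Bag3, which links HSP70 to selective autophagy, -0.03 (-0.15 to 0.08). These 4 intervals include 0. Hsp90aa1 was 1.04-fold higher, with a log2FC of 0.06 (0.01 to 0.11). Among the constitutive members, Hspa8 was 1.07-fold higher (log2FC 0.10, 0.07 to 0.14), Hspd1 had a log2FC of 0.04 (-0.05 to 0.13), and Hspe1 was lower at -0.28 (-0.43 to -0.14). The inducible class was therefore not uniform, with a log2FC range of -0.03 to 1.80 against -0.28 to 0.10 for the constitutive class. Hspa1l, the third HSP70 gene of this cluster and mostly a testis gene, had 68, 70, 69 and 71 counts in the 4 libraries and did not share the high level of its neighbours in normal Rab44-KO.

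**Figure D2:**
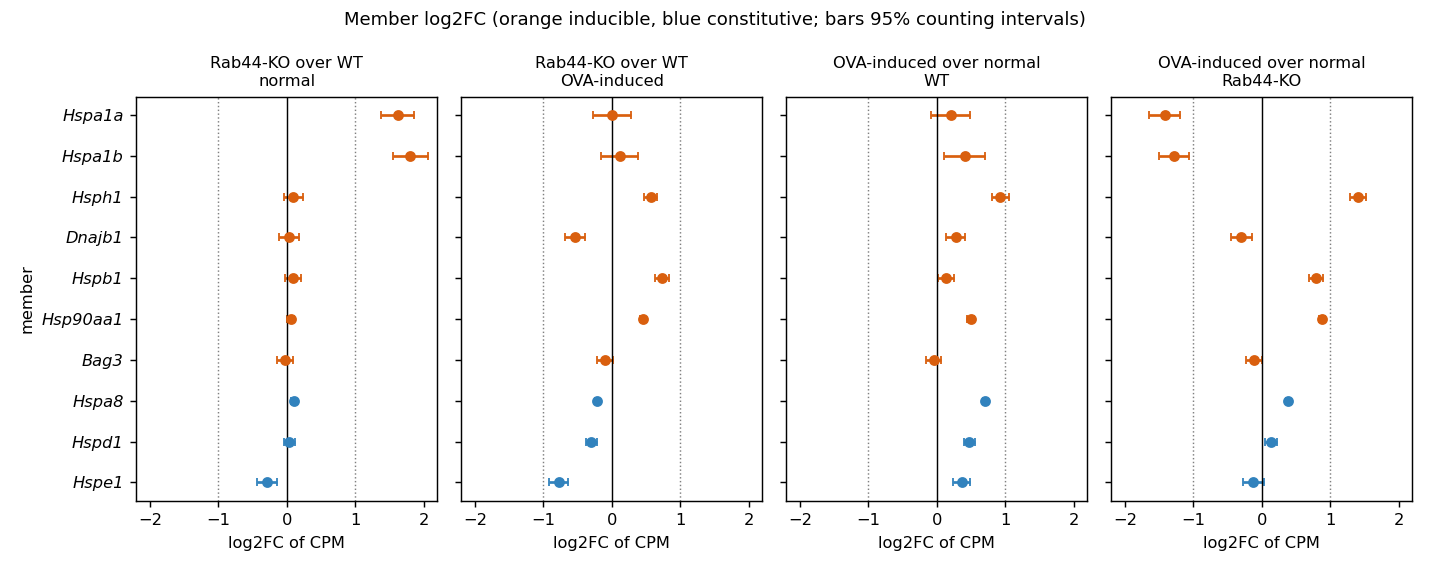
The log2FC of each member in the 4 comparisons, with exact 95% Clopper-Pearson counting intervals as bars, solid lines at 0 and dotted lines at 2-fold. Hspa1a and Hspa1b lie beyond 2-fold in the comparison of normal libraries and on the opposite side for OVA-induced over normal Rab44-KO, and Hsph1 lies beyond 2-fold in the latter.

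Within a library, the ratio of 2 genes does not depend on how libraries are scaled, although it keeps any trend with gene length. The summed TPM of Hspa1a and Hspa1b was 2.11% (1.89 to 2.34) of that of Hspa8 in normal WT and 6.42% (6.04 to 6.83) in normal Rab44-KO. After OVA it was 1.60% (1.45 to 1.76) in WT and 1.94% (1.77 to 2.13) in Rab44-KO. The ratio of inducible to constitutive cytosolic HSP70 was thus highest in normal Rab44-KO, and its interval did not meet those of the other libraries. Hsph1 stood at 2.02%, 2.01%, 2.37% and 4.09% of Hspa8 in the same order of libraries, so this ratio was highest in OVA-induced Rab44-KO instead. Hsp90aa1 was 30.9% and 35.0% of its constitutive partner Hsp90ab1 in the normal WT and Rab44-KO libraries, and 31.1% and 37.7% in the OVA-induced ones. Hspd1, the HSP60 chaperonin, was 73.7% and 92.1% of its lid Hspe1 in the normal libraries, and 79.5% and 111% in the OVA-induced ones, so this ratio was higher in Rab44-KO within each condition. With the length trend of all genes removed, the log2 difference of the Hspd1 to Hspe1 ratio between Rab44-KO and WT went from 0.32 to 0.31 in the normal libraries and from 0.48 to 0.14 after OVA. That of Hsph1 to Hspa8 after OVA went from 0.79 to 0.30. Reads shared with pseudogenes could touch these ratios, but such reads were not measured. Of the windows of Hspa8, 55.37% occur in transcripts of other genes, and so do 36.17% of Hsp90aa1, 36.62% of Hspb1, 18.56% of Hspd1 and 14.08% of Hspe1. This share was 0 for Hsph1, Dnajb1, Bag3 and Hsp90ab1.

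**Figure D3:**
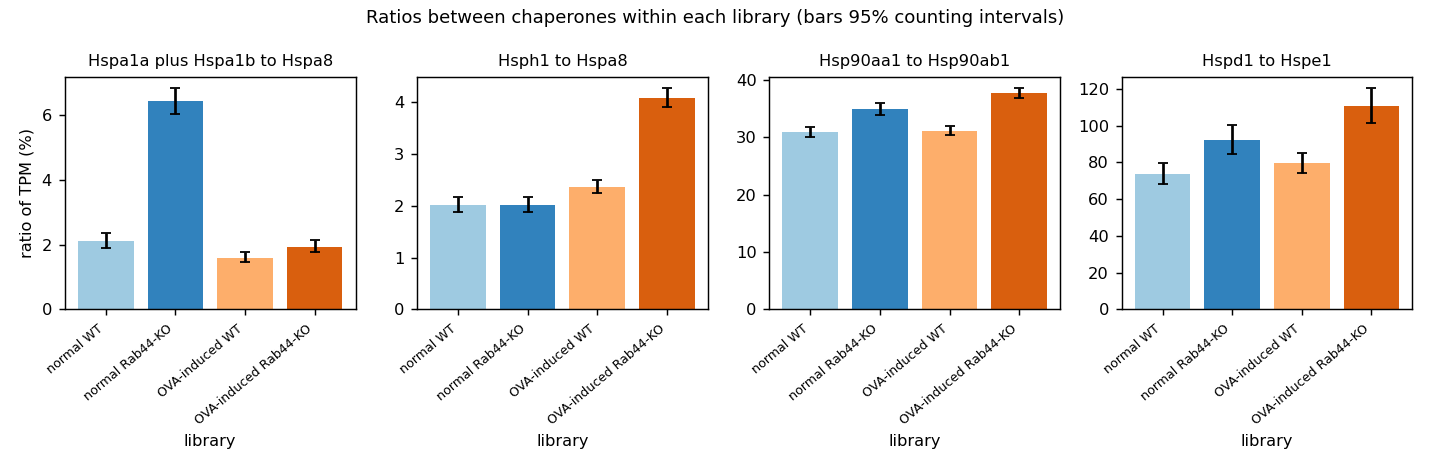
Ratio of TPM (percent) between chaperones within each library for Hspa1a plus Hspa1b to Hspa8, Hsph1 to Hspa8, Hsp90aa1 to Hsp90ab1 and Hspd1 to Hspe1, with 95% counting intervals. The ratio of Hspa1a plus Hspa1b to Hspa8 was 6.42% in normal Rab44-KO and 1.60% to 2.11% elsewhere, and Hsph1 reached 4.09% of Hspa8 in OVA-induced Rab44-KO.

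The comparison of Rab44-KO with WT after OVA asks which genes went with Rab44 loss in allergic lungs. The inducible HSP70 genes were level, while other members diverged in both directions. Hspa1a had a log2FC of 0.0032 (-0.27 to 0.28) and Hspa1b of 0.12 (-0.15 to 0.39). Hspb1 had 59.6, 63.3, 65.7 and 109 CPM. Its OVA-induced Rab44-KO library stood above the other 3, and exceeded OVA-induced WT by a log2FC of 0.73 (0.63 to 0.83), or 1.66-fold. Hsph1 had 41.0, 43.8, 78.1 and 116 CPM, so that both OVA-induced libraries were high and Rab44-KO was the higher of them, by a log2FC of 0.57 (0.47 to 0.66). Hsp90aa1 followed the same order at 317, 331, 446 and 609.8 CPM, with a log2FC of 0.45 (0.41 to 0.49).

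In CPM, Hspe1, Dnajb1, Hspd1 and Hspa8 were lower in the OVA-induced Rab44-KO library than in its WT counterpart. Hspe1 had 46.4, 38.1, 59.6 and 34.9 CPM, with a log2FC of -0.77 (-0.91 to -0.64) after OVA. It was lower in Rab44-KO in each condition. Dnajb1 had 41.1, 42.2, 49.8 and 34.3 CPM, with a log2FC of -0.54 (-0.68 to -0.40). Hspd1 had 115, 118, 159.7 and 129.9 CPM and a log2FC of -0.30 (-0.37 to -0.22). Hspa8 had 665, 714, 1081 and 929 CPM and a log2FC of -0.22 (-0.25 to -0.19), which with the trend in gene length removed was 0.090. Hspd1 was then at -0.05 and Dnajb1 at -0.40. Per TPM, Hspa8 was at 0.11 and Hspd1 at 0.029, but the median of all genes was then 0.29, so that they lay 0.18 and 0.26 below it. Both constitutive genes were highest in OVA-induced WT in CPM. Bag3, at 64.8, 63.4, 62.7 and 58.6 CPM, spanned the smallest range of the members in CPM, and its intervals included 0 in each of the 4 comparisons. Its log2FC of -0.10 (-0.22 to 0.02) after OVA became 0.15 with the length trend removed, which lies outside that interval.

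Over 2-fold, 0 of 10 members were higher, against 8.4% of 19259 genes, and 0 were lower, against 7.34%. At 1.5-fold, 1 member (Hspb1) was higher, against 18.1% of genes, and 1 (Hspe1) was lower, against 17.6%. With the trend of log2FC with gene length removed, 2 members (Hspb1 and Hsp90aa1) were over 1.5-fold higher, against 11.75% of genes, 0 were lower, against 8.13%, and 1 (Hspb1) was over 2-fold higher, against 4.34%. The median log2FC of the members was -0.048, and that of all genes was -0.024. Gene length moved with these differences. Across 13562 genes, Spearman's rho of log2FC with gene length was 0.55, where genes are not independent replicates, against 0.22 in the normal comparison, -0.34 for OVA in WT and 0.30 for OVA in Rab44-KO. TPM do not remove this trend, since they move every gene of a comparison alike, by 0.33 on the log2 scale here, 0.027 in the normal comparison, -0.17 for OVA in WT and 0.13 for OVA in Rab44-KO. Hspe1 and Hspb1, with transcripts of 774 and 930 bases, are short genes on opposite sides of 0. With the length trend removed, Hspb1 was at 1.30 and Hspe1 at -0.19, while Hsph1, with 3802 bases, was at 0.39. The part of RNA length in the members' differences was not tested beyond these values.

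OVA-induced over normal libraries were compared within each genotype. In WT, 8 of 10 members were higher beyond counting error (Hspb1 not with the length trend removed), 0 were lower, and the intervals of Hspa1a and Bag3 included 0. Of 19023 genes, 29.2% had an interval wholly above 0 and 27.4% wholly below, and intervals are narrower for abundant genes such as most members. Hsph1 had the largest log2FC, 0.93 (0.80 to 1.06), just inside the 2-fold limit. Hspa8 followed at 0.70 (0.67 to 0.73), Hsp90aa1 at 0.49 (0.45 to 0.54), Hspd1 at 0.47 (0.39 to 0.55), Hspb1's log2FC was 0.14 (0.02 to 0.26), and Hspe1's was 0.36 (0.24 to 0.49). Hspb1 turned sign when the length trend was removed (-0.055). Per TPM it was at -0.034, which is 0.13 above the median of all genes on that scale. No member passed 2-fold, against 8.99% of 19023 genes higher and 5.2% lower. At 1.5-fold 2 members (Hsph1 and Hspa8) were higher, against 15.4%, and 0 were lower, against 12.9%. Hspa8 was under 1.5-fold with the length trend removed (0.57) and per TPM (0.53), which left 1 member. The median log2FC of the members was 0.39, and that of all genes was 0.0037.

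In Rab44-KO, the members spread more widely under OVA. Hsph1 was higher by a log2FC of 1.40 (1.28 to 1.52), or 2.64-fold, Hsp90aa1 by 0.88 (0.84 to 0.93) and Hspb1 by 0.79 (0.68 to 0.89). Hspa8 was higher by 0.38 (0.35 to 0.41) and Hspd1 by 0.14 (0.05 to 0.22). Hspa1a was lower at -1.42 (-1.64 to -1.19), 2.67-fold, Hspa1b at -1.28 (-1.51 to -1.06), 2.43-fold, and Dnajb1 at -0.30 (-0.45 to -0.15). These HSP70 values rest on the same high normal Rab44-KO library as the comparison of normal libraries. The intervals of Hspe1, -0.13 (-0.28 to 0.03), and of Bag3 included 0, and Hspe1 was at 0.13 with the length trend removed. Over 2-fold, 1 of 10 members was higher, against 6.44% of 19073 genes, and 2 were lower, against 3.85%. At 1.5-fold 3 members (Hsph1, Hsp90aa1 and Hspb1) were higher, against 12.9%, and 2 were lower, against 10.1%. The median was 0.011 for the members and -0.0083 for all genes. Of the 13484 genes that reached 100 counts in either library, Hspa1a was the 64th and Hspa1b the 87th from the bottom, and Hsph1 was the 169th from the top.

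The difference between these OVA responses, Rab44-KO minus WT, was computed for each member with a counting interval and no test. It was -1.62 (-1.97 to -1.26) for Hspa1a and -1.69 (-2.05 to -1.32) for Hspa1b. Hspb1 had 0.65 (0.49 to 0.80), Hsph1 0.47 (0.30 to 0.64) and Hsp90aa1 0.39 (0.33 to 0.46), so the difference was positive for these 3 inducible members. It was negative for Dnajb1 at -0.58 (-0.78 to -0.38), Hspe1 at -0.49 (-0.69 to -0.29), Hspd1 at -0.34 (-0.45 to -0.22) and Hspa8 at -0.32 (-0.37 to -0.27). For Bag3 it was -0.07 (-0.23 to 0.10). With the length trend removed, Hspb1 stood at 1.11, Hsp90aa1 at 0.54, Hsph1 at 0.31 and Bag3 at 0.12, so Bag3 changed sign and left its interval. The constitutive genes then stood at -0.05 for Hspa8, -0.16 for Hspd1 and -0.03 for Hspe1, whereas Hspa1a and Hspa1b stood at -1.47 and -1.54.

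Profiles over the 4 libraries were compared as distances between log2 CPM centred on each gene's mean. The closest members were Hspa1a and Hspa1b (0.23), followed by Hspa8 and Hspd1 (0.25), Hspb1 and Hsp90aa1 (0.30), and Dnajb1 and Hspe1 (0.31). The farthest were Hspa1a and Hsph1, at 2.11. The inducible members thus held both the closest and the farthest pair. Of 13889 other genes, those nearest to the mean profile of the 7 inducible members were Sidt1 (0.067), Cxcl17 (0.079), Gprc5c (0.091), Gm51879 (0.091) and Pdzrn3 (0.095), as a description of 4 values per gene. This mean blends Hspa1a and Hspa1b, highest in normal Rab44-KO, with Hsph1, Hspb1 and Hsp90aa1, highest in OVA-induced Rab44-KO. Genes near it therefore need not resemble any single member. For Hsph1 alone, chosen after its values were seen, the nearest genes were Nfkbia (0.11), Btla (0.13) and C5ar1 (0.15), and Nfkbia had 1793, 2007, 3613 and 5177 counts.

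The wider chaperone network was described with 9 lists, and immediate-early and housekeeping genes were added for comparison. Hsf1, the main heat shock factor, had a log2FC of -0.01 (-0.17 to 0.14) in normal and 0.02 (-0.12 to 0.17) in OVA-induced Rab44-KO over WT. Among 15 other targets of heat shock factors, some of which also stand in the lists of partners, the median log2FC was -0.12 in the normal comparison. There 0 of the 15 were over 1.5-fold higher, against 6.83% of all genes, and 0 were lower, against 4.61%. The activity of Hsf1 was not measured, and its part in the high Hspa1a and Hspa1b of normal Rab44-KO was not tested. After OVA, 1 of the 15 was over 2-fold higher in Rab44-KO over WT, against 8.4% of all genes, namely Hspa4l, an HSP110 relative of Hsph1. Hspa4l had 76.3, 72.7, 58.1 and 141 CPM, high in the same library as Hsph1, with a log2FC of 1.27 (1.17 to 1.38), which was 0.92 and so under 2-fold with the length trend removed. Hsp90ab1, the constitutive HSP90, had 903, 831, 1261 and 1422 CPM, and Stip1, which couples HSP70 to HSP90, had a log2FC of 0.69 (0.58 to 0.79) for OVA in Rab44-KO.

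None of the 13 genes of HSP90 and its co-chaperones passed 1.5-fold in Rab44-KO over WT in either condition, and all 13 lay below 0 in the normal comparison (Ppid at 0.0042 with the length trend removed), with a median of -0.12. Among all genes, 6.83% were over 1.5-fold higher and 4.61% lower in the normal comparison, and 18.1% and 17.6% after OVA. Of the 14 HSP70 relatives and exchange factors, 2 were over 1.5-fold higher (Hspa4l and Hspa12a, 0.74) in OVA-induced Rab44-KO over WT, against these 18.1%. There 1 was lower (Hspa14, -0.65), against 17.6%. Of the 14 J-domain co-chaperones, Dnajb14 (0.72) was over 1.5-fold higher and Dnajc2 (-0.76) lower in that comparison, against the same shares of all genes. In the other 3 comparisons 0 passed, against 4.61% to 15.4% of all genes in each direction. With the length trend removed, of these genes only Hspa4l was still past 1.5-fold, with Hspa12a at 0.49, Hspa14 at -0.31, Dnajb14 at 0.46 and Dnajc2 at -0.51. Of the 5 measured small heat shock proteins beside Hspb1, the log2FC of OVA-induced Rab44-KO over WT was highest for Hspb7 at 0.88 and lowest for Hspb2 at -0.62 (1.11 and -0.03 with the length trend removed), and Cryab had a log2FC of -0.40 in the normal comparison. Hspb1 therefore did not share its profile with Cryab, the other abundant small heat shock protein, which had 4496, 3240, 3520 and 2953 counts.

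The 8 subunits of the cytosolic chaperonin TRiC were all below 0 in OVA-induced Rab44-KO over WT (Cct6a was at 0.02 per TPM, under the median of all genes), with a median log2FC of -0.43, and all above 0 for OVA in WT, with a median of 0.33. These medians were -0.15 and 0.20 with the length trend removed. The 10 mitochondrial chaperones and proteases had a median of -0.31 in the former, which was -0.030 with the length trend removed, and Grpel1, the exchange factor of mitochondrial HSP70, was lowest at -0.64. Endoplasmic reticulum chaperones were the list most apart under OVA. In WT, 9 of 16 were over 1.5-fold higher, against 15.4% of all genes, and 0 were lower, against 12.9%. The list had a median of 0.73 there, led by Sdf2l1 (1.82), Creld2 (1.36) and Calr (0.99). In Rab44-KO, 4 of 16 were over 1.5-fold higher, against 12.9% of all genes, with a median of 0.44. With the length trend removed the counts over 1.5-fold higher were 9 in WT and 7 in Rab44-KO, against 9.99% and 8.01% of all genes. Markers of B and plasma cells, which secrete protein in bulk, moved with this list. Their summed CPM was 417, 374, 1374 and 629, and for OVA in WT the plasma cell genes Jchain and Mzb1 had a log2FC of 5.88 and 3.27. Their part in the endoplasmic reticulum chaperones was not tested. The heat shock chaperones' own median for OVA in WT, 0.39, lay between those of this list and of TRiC. It was not above that of the housekeeping genes, which was 0.43 in this comparison, with 8 of 9 above 0.

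**Figure D4:**
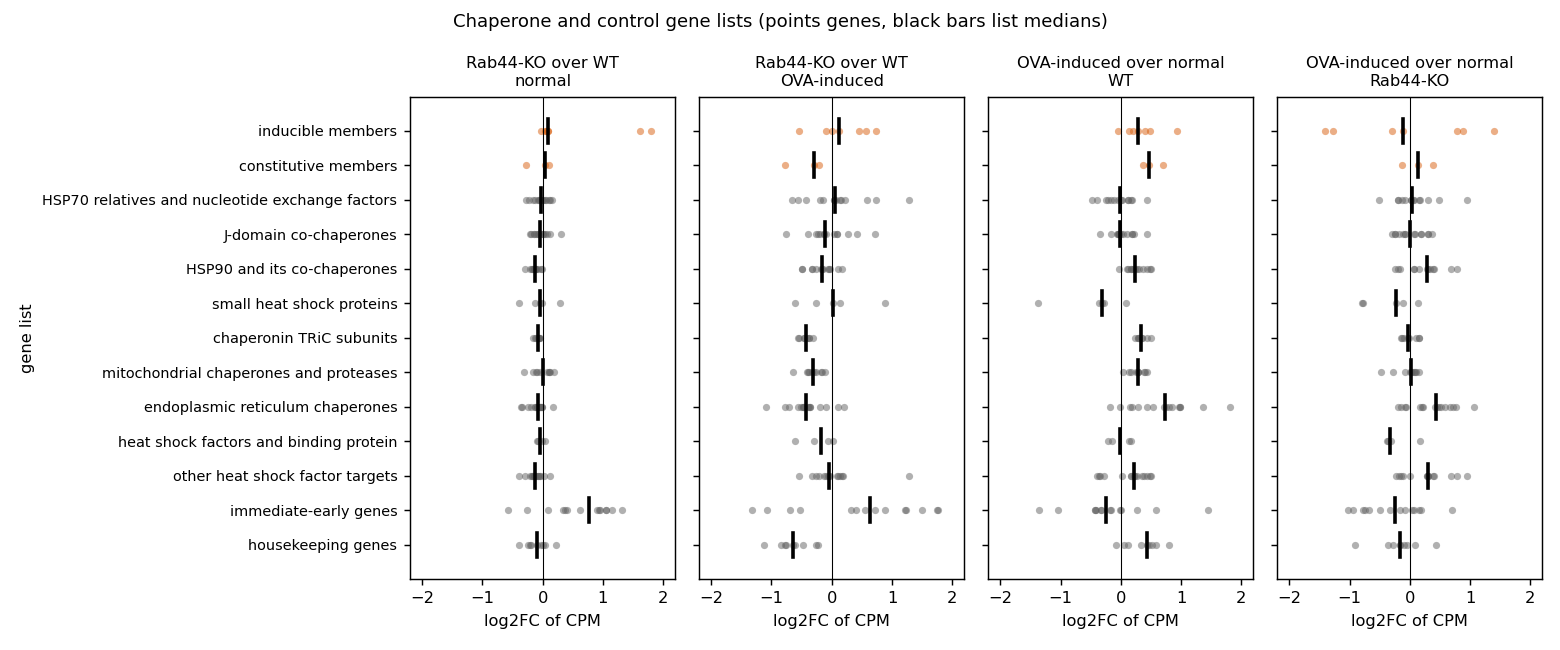
The log2FC of every measured gene (points) and the list median (black bar) for the inducible and constitutive members, 9 chaperone lists, immediate-early genes and housekeeping genes in the 4 comparisons. In the normal comparison Hspa1a and Hspa1b stand apart from the chaperone lists, and the immediate-early genes have a median of 0.77.

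Immediate-early genes, which respond within minutes to many stimuli, moved with the high Hspa1a and Hspa1b of normal Rab44-KO. In that comparison 4 of 14 were over 2-fold higher, against 2.77% of all genes, and 8 over 1.5-fold higher, against 6.83%. Over 1.5-fold, 0 were lower, against 4.61%, and the median log2FC was 0.77. Fos had 70.8, 177, 27.5 and 92.4 CPM. The OVA-induced Rab44-KO library was also higher than WT for 7 of 14 of these genes at 1.5-fold, against 18.1% of all genes. There 3 were lower, against 17.6%, the median was 0.63 and Dusp1 had a log2FC of 1.76, although Hspa1a and Hspa1b were level. The summed CPM of the list was 1436, 2434, 1177 and 2308. The part of these genes' response in the HSP70 levels was not tested.

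Housekeeping genes were lower in OVA-induced Rab44-KO than in WT, 6 of 9 by over 1.5-fold, against 17.6% of all genes, with a median of -0.64. With the length trend removed 0 of 9 were past 1.5-fold, against 8.13% of all genes lower and 11.75% higher, and the median was -0.25. Ppia, a peptidyl-prolyl isomerase, had the lowest value, -1.12. The constitutive members moved in the same direction as this list in CPM.

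Cell type markers moved with the OVA-induced comparison as well. Among all genes in OVA-induced Rab44-KO over WT, 7.34% were over 2-fold lower and 8.4% higher, and at 1.5-fold 17.6% and 18.1%. With the length trend removed these shares were 2.41% and 4.34%, and 8.13% and 11.75%. The largest change of a summed list was that of alveolar macrophage markers, at 559, 529, 5676 and 1167 CPM, most of it from Chil3, and 3 of 7 were over 2-fold lower in OVA-induced Rab44-KO than in WT, with Marco at -3.59. Of 6 B and plasma cell markers 2 were over 2-fold lower. Of 5 measured eosinophil markers, 5 were over 2-fold lower in OVA-induced Rab44-KO than in WT, and their summed CPM was 28.1, 30.7, 109 and 27.9 in the 4 libraries, with Epx at 0 or 1 count. Of 6 T cell markers 4 were over 2-fold lower, with sums of 40.3, 44.2, 95.5 and 47.6 CPM. With the length trend removed, 5 of these 6 were over 1.5-fold lower and 0 over 2-fold lower, and of the 4 eosinophil markers that then had a value 3 were over 2-fold lower. Of 7 neutrophil markers 3 were over 1.5-fold higher, and their sum was 110, 144, 573 and 736 CPM, with Ly6g at 0 in normal WT. Like Hsph1 and Hsp90aa1, this sum was highest in OVA-induced Rab44-KO. Cardiac muscle markers, of which 4 of 8 exceeded OVA-induced WT by over 2-fold in Rab44-KO and none was at 0, summed to 756, 835, 332 and 728 CPM, and endothelial markers, 4 of 6 over 1.5-fold higher, to 3343, 3324, 2666 and 3856 CPM. Of 5 club cell markers 3 were higher by over 1.5-fold, led by Bpifa1 at 2.96, and with the length trend removed 3 of 5 were higher by over 2-fold and the median was 1.19. Their summed CPM was 26085, 26626, 18157 and 21110. Of 6 alveolar type 2 markers 2 were over 1.5-fold lower, and of 5 ciliated cell markers 2 were over 1.5-fold higher, counts that became 0 and 1 with the length trend removed. Under that setting the 2-fold counts of alveolar macrophage and cardiac muscle markers became 2 of 7 and 6 of 8, and the 1.5-fold counts of neutrophil and endothelial markers became 4 of 6 with a value and 3 of 6. In the normal comparison, where Hspa1a and Hspa1b differed, summed marker levels differed by at most a log2 ratio of 0.38 over the 12 lists, the largest being that of neutrophils. Single markers differed by more, since 3 of 6 neutrophil markers were over 1.5-fold higher in normal Rab44-KO, and Marco (1.46) and Jchain (1.04) were over 2-fold higher, while Cd79a was lower (-0.61). 1 of 5 club cell and 1 of 8 cardiac muscle markers were also over 1.5-fold higher, as were 6.83% of all genes in this comparison. The part of cell composition in the members' differences was not tested.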

How the data were processed

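Lung RNA-seq of 4 libraries, 1 per condition, was used. The deposited values are raw counts per gene, which the authors made with featureCounts from 150-bp read pairs after trimming and HISAT2 alignment (build GRCm38). The authors also deposited TPM, used here for levels per length and as an alternative. Versions, strand setting and handling of reads with several matches are not given in the sources used here, and DESeq2 is named for the authors' own test. Starts in the deposited table equalled RefSeq GRCm38 starts for 2.12% of the 39401 genes found in both, and coordinates of genes were therefore taken from GENCODE M21, a GRCm38 annotation, instead.

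Counts were scaled by TMM in edgeR 4.0.16 (R 4.3.3), with factors of 0.973 to 1.02, and analysed with scipy 1.17.1 and pandas 2.3.3 (numpy 2.4.6, matplotlib 3.10.9) under Python 3.11.15. The log2FC used a prior count of 0.125 and genes that reached 10 counts in either library. A difference between 2 log2FC has a normal-approximation interval on 4 counts. No test was run, because a comparison of 2 libraries leaves no residual degrees of freedom. The log2FC and its counting interval were run on simulated Poisson counts with known folds. Such counts hold no variation between mice and no length trend, so this run does not bear on either. Shared sequence was counted as 150-base windows of the transcript that occur in GENCODE M21 transcripts of other genes.

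Genes named were all members, Hsp90ab1, Rab44, the 3 genes per list whose log2FC was largest in size among those reaching 100 counts, and the 5 nearest profiles. Defining markers at 0 were also named. Hspa1l, Hsf1, Cct6a, Ppid and the genes nearest to Hsph1 were chosen after their values were seen. Members and lists were chosen with earlier results of these data known. Alternatives were DESeq2 1.42.0 size factors, total counts, TMM of the 2 libraries compared, a prior count of 2, TMM without immunoglobulin genes, TPM with a pseudocount of 0.1, count minimums of 1 and 100, Hspa1a and Hspa1b summed, removal of a running median of log2FC over 501 genes ordered by length, 1.5-fold, and intervals wholly beyond 2-fold.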

Additional observations from a re-analysis of the deposited data

Results flagged for a closer look

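In 3 members a difference pointed in opposite directions in the other group, with both counting intervals away from 0, and none of these contrasts was tested. Hspa1b had an OVA-induced over normal log2FC of 0.41 in WT and -1.28 in Rab44-KO. In WT the interval of its neighbour Hspa1a, 0.20 (-0.08 to 0.49), included 0, and the split of reads between these genes is uncertain. Dnajb1 had 0.28 in WT and -0.30 in Rab44-KO. For Hspa8 the log2FC of Rab44-KO over WT was 0.10 in normal and -0.22 in OVA-induced libraries, and the latter became 0.11 per TPM, where it lay 0.18 below the median of all genes, and 0.090 with the length trend removed. With 1 library per condition no library could be compared with others of its group.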

How the results depend on the processing

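No paired analysis was possible because each condition has 1 library and the labels carry no replicate numbers, and for the same reason no replicate could be left out. DESeq2 size factors, TMM of the 2 libraries compared, a prior count of 2, TMM without immunoglobulin genes, and count minimums of 1 and 100 left each count within 1.5 times and each median and member within its counting interval. Total counts moved 4 member values past theirs and turned none whose interval excludes 0.

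TPM move every gene of a comparison by about the same amount, and the median of all genes became 0.29 in OVA-induced Rab44-KO over WT, -0.16 for OVA in WT and 0.11 for OVA in Rab44-KO. Per TPM and with the length trend removed, signs turned for Hspa8 in OVA-induced Rab44-KO over WT (0.11 and 0.090) and for Hspb1 for OVA in WT (-0.034 and -0.055), and per TPM for Hspd1 in OVA-induced Rab44-KO over WT (0.029). Against those medians Hspa8 and Hspd1 stayed lower and Hspb1 higher per TPM. Among members whose intervals include 0, Bag3 in OVA-induced Rab44-KO over WT (0.23 and 0.15), Bag3 for OVA in Rab44-KO per TPM (0.011), Hspe1 for OVA in Rab44-KO (0.13) and Bag3 in normal Rab44-KO over WT (0.0032), both with the trend removed, also changed sign.

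The members' median became 0.28 per TPM and 0.18 with the trend removed in OVA-induced Rab44-KO over WT, and 0.14 and 0.18 for OVA in Rab44-KO. Under either setting 1 member was over 2-fold higher in OVA-induced Rab44-KO over WT, against 13.5% of all genes per TPM and 4.34% with the trend removed, and 2 for OVA in Rab44-KO, against 6.75% and 2.55%. With the trend removed, 1 was over 2-fold higher for OVA in WT, against 4.61%.

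At 1.5-fold the members higher were 1 in OVA-induced Rab44-KO over WT, 2 for OVA in WT and 3 for OVA in Rab44-KO, and 1 was lower in OVA-induced Rab44-KO over WT. Per TPM and with the trend removed, the members past 1.5-fold in OVA-induced Rab44-KO over WT were 3 and 2 higher (against 31.6% and 11.75% of all genes) and 0 lower under both (8.16% and 8.13%), and for OVA in WT 1 was higher under both (11.5% and 9.99%). Hspa1a and Hspa1b summed counted as 1 member higher in normal Rab44-KO over WT and 1 lower for OVA in Rab44-KO, where the median became 0.14. Causes were not tested, except that the sum has fewer members by construction. Hspa1a and Hspa1b kept log2FC of 1.61 to 1.82 in normal Rab44-KO over WT under the alternatives run. Depth limits Hspa1a and Hspa1b most, since the lowest library holds 165 counts.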
